A study of Mus musculus with 6 samples.

Results

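NRF2, its repressor KEAP1 and 8 of the best known redox genes that NRF2 switches on were followed in mouse liver upon a soy-enriched diet. The genes were Nfe2l2 (which encodes NRF2), Keap1, Nqo1, Cbr3, Ephx1, Srxn1, Txnrd1, Htatip2, G6pdx and Pgd. They were taken by name, as pathway genes outside glutathione and heme metabolism, and were found through the RefSeq accession that the array gives for each probe. The 10 genes are represented by 12 of the 56605 non-control probes and are 10 of the 22911 genes that these probes name, with 2 probes each for Txnrd1 and Htatip2 and 1 for each of the others.

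The livers came from male mice that were 12 weeks old when the diets began. The 3 control mice ate 100% granulated regular food, and the 3 soy-fed mice ate 75% regular food with 25% soy bean powder, each for 4 weeks. Neither the strain nor any genetic modification is given in the sources used here, both groups came from the same intervention, and the 25% that was soy in one chow was regular food in the other. Total RNA of each liver, taken from the right lobe, was hybridised to its own 1-colour Agilent expression array. All values below are normalised log2 signals of a probe, and a difference of 1 on this scale is a doubling.

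NRF2 is a basic leucine zipper transcription factor. In unstressed cells KEAP1, a cysteine-rich adaptor of the CUL3 ubiquitin ligase, holds NRF2 in the cytoplasm and hands it over for degradation. When electrophiles or oxidants modify the cysteines of KEAP1, newly made NRF2 escapes, enters the nucleus, pairs with a small MAF protein and binds antioxidant response elements near its target genes. NRF2 is thus controlled largely as a protein, which an mRNA array does not measure. In liver the pathway is known for the induction of enzymes that reduce quinones and carbonyls, open epoxides, repair oxidised thiols and supply NADPH.

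Of the 10 genes, Htatip2 and Ephx1 rose in the soy-fed livers and none fell. Htatip2 was 2.90-fold higher by its brighter probe and 2.65-fold higher by the dimmer one, and Ephx1 was 2.32-fold higher. Srxn1, Nqo1, Cbr3, Keap1, both probes of Txnrd1 and, by a gap of 0.022, Nfe2l2 read higher on every soy array than on any control array without passing the test. G6pdx read lower on every soy array, also without passing, and Pgd differed by 0.045 with overlapping groups.

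A gene was called when at least 1 of its probes had an adjusted p under 0.05 in limma, with Benjamini-Hochberg adjustment over all probes, and a fold change above 1.5 or under 0.66. By that rule 2 of the 10 genes were called, against 0.532% of all 22911 genes (78 higher, 0.34%, and 44 lower, 0.192%). With Agilent's processed signal scaled to the 75th percentile, in place of the quantile-normalised median signal, 5332 genes were called higher and 615 lower. That alternative changed the signal, its background handling and the scaling together. Among the 15127 genes whose brightest probe stood well above background throughout 1 group or both, 0.694% were called by that probe, and 0.436% were called higher. At an unadjusted p under 0.05, by the brightest probe of each gene, 8 of the 10 genes passed against 14.2% of all genes. The groups did not overlap for 9 of the 10 genes (8 higher, 1 lower), against 20.5% of all genes (9.68% higher, 10.8% lower) and 25.5% (12.2% higher, 13.3% lower) of these 15127 genes. The median log2 change of the 10 genes was 0.55, and over all genes it was −0.0057. The direction held for 9 of the genes in all 20 alternative analyses, and that of Pgd turned without control 1, to −0.013.

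**Figure D1:**
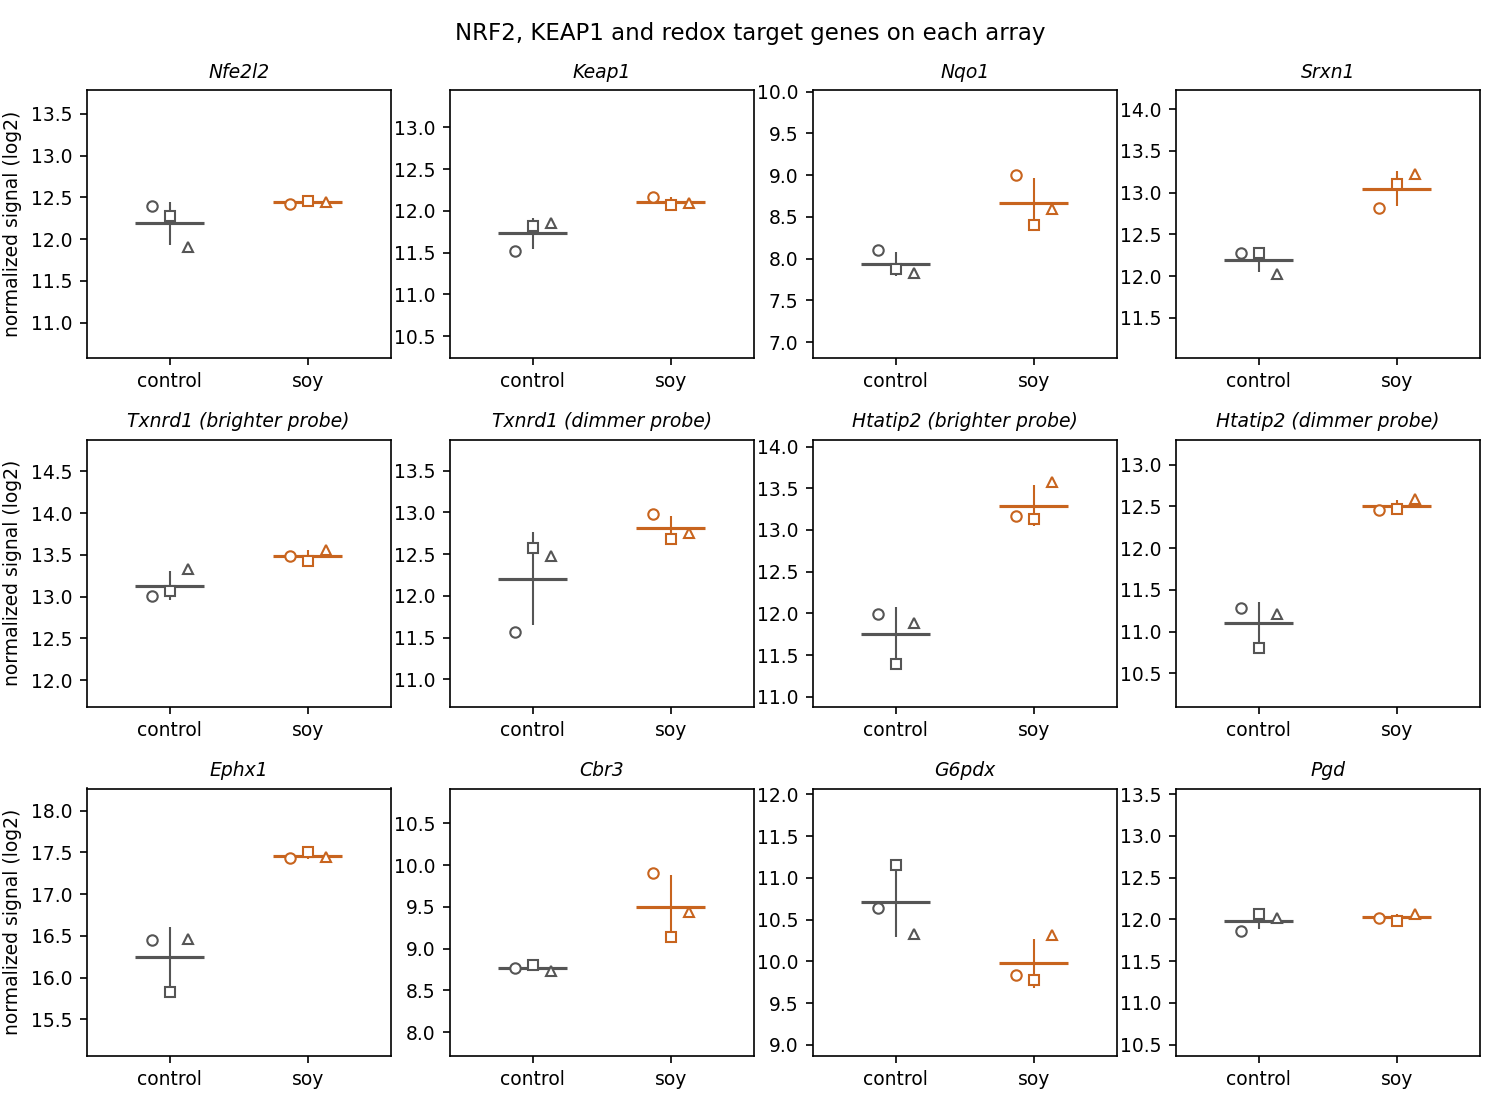
Normalised log2 signal of each of the 12 probes of the 10 genes on each array, in panels whose vertical axes all span the same range. Circles, squares and triangles are replicates 1, 2 and 3, the horizontal line is the group mean and the vertical line the SD (n = 3). The groups stand apart for Htatip2 (brighter probe, 11.39 to 11.99 against 13.13 to 13.58) and Ephx1 (15.82 to 16.46 against 17.43 to 17.51), and overlap for Pgd alone.

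Several properties of the arrays moved with the diet or bear on the comparison, and they apply to every result that follows. Spots well above background were 61.3% to 64.4% on the control arrays and 52.8% to 54.8% on the soy arrays. All 12 probes of the 10 genes were well above background on all 6 arrays, and none was saturated. The arrays lay on 3 slides. Slide 1 held control 1, control 2 and soy 1, slide 2 held soy 2 alone, and slide 3 held control 3 and soy 3, so a difference within a slide could be read on slides 1 and 3 only. With slide as a term of the fit none of the 10 genes was called by limma (7 of the 10 had an unadjusted p under 0.05), with Htatip2 at 1.57 (adjusted p = 0.131) and Ephx1 at 1.16 (adjusted p = 0.212). With slide as a random block both were called, at adjusted p = 0.0239 and 0.0422.

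The RNA carried the hepatocyte markers at high signal: all 8 (Alb, Ttr, Apoa1, Apob, Cps1, Hnf4a, Serpina1a, Tat) were well above background, and their summed signal was 20.72 to 20.78 on the log2 scale in control and 20.62 to 20.74 in soy-fed livers. Serpina1a, the brightest of them, differed by −0.0043 (adjusted p = 0.992) and weighs heavily in that sum. Taken singly, 6 of the 8 read lower, and by the brightest probe 3 of 8 had an unadjusted p under 0.05 in limma: the urea cycle gene Cps1 at −0.47 (adjusted p = 0.178, groups without overlap), the tyrosine aminotransferase Tat at −0.76 (adjusted p = 0.324) and Apob at 0.46 (adjusted p = 0.38). In whole liver, fewer cells of a type and less RNA per cell cannot be told apart. Of 7 markers of pancreas and fat, tissues that lie close to the liver, 1 was well above background on all arrays, the pancreatic elastase gene Cela2a. The log2 of their summed signal, in which Cela2a is the brightest, was 11.05, 11.45 and 10.82 in control against 10.11, 10.39 and 10.20 in soy-fed livers. Cela2a differed by −1.21 (adjusted p = 0.0724), with every soy array below every control array. Cpa1, Pnlip, Prss2 and Retn were well above background on 2 control arrays each and on 0 soy arrays, and the fat genes Adipoq and Plin1 on none. Their part in the results was not tested, and no marker of any list was called.

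Summed markers of the other liver cells differed by 0.16 for cholangiocytes (brightest Spp1 at 0.15, adjusted p = 0.843, with Epcam not well above background on any array), by 0.22 for Kupffer cells (Cd5l at 0.45, adjusted p = 0.538) and by 0.13 for endothelial cells (Clec4g at 0.20, adjusted p = 0.546). Stellate cell markers differed by −0.19 (Reln at −0.23, adjusted p = 0.666), and markers of red cells and neutrophils by 0.26, a sum in which the haemoglobin gene Hba-a1 is the brightest (0.26, adjusted p = 0.774). All 6 genes of that list read higher, the neutrophil genes S100a8 by 0.58 (adjusted p = 0.445) and S100a9 by 0.62 (adjusted p = 0.481) with overlapping groups, and Ngp read at background on all 6 arrays. Singly, 4 of 7 cholangiocyte, 6 of 7 Kupffer cell, 3 of 6 endothelial and 2 of 7 stellate cell markers read higher, with the Kupffer cell gene Marco at −0.73 and the endothelial gene Lyve1 at −0.67. The summed endothelial markers did not overlap between the groups (15.36 to 15.38 in control, 15.41 to 15.60 in soy-fed livers), though 1 of the 6 genes, Clec4g, was without overlap by its brightest probe. The other sums in this group overlapped, and the part of these cells in the results was not tested.

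To show what the genes carry next to their starts, the 300 bases from 250 before to 50 after each RefSeq start (GRCm38.p6) were searched on both strands for TGACNNNGC, the core letters of an antioxidant response element. The 10 genes have 14 such windows, and several genes have more than 1. The letters were present for 6 of the 10 genes, against 14.0% of all 27025 genes with a window and 17.4% of 69 other genes of the pathway. After the Srxn1 sequence had been seen, the related letters TGAGNNNGC, with G as the fourth base, were searched as well. They were found for 1 of the 10 genes, against 19.8% of all genes and 26.1% of the 69 other genes of the pathway. Either set of letters was present for 6 of the 10 genes, against 30.8% of all genes and 39.1% of the 69. The motifs cannot start at the same base on a strand, since they differ in that letter. Each match is printed with 10 bases on either side, 5′ to 3′ on the strand where it reads, with the 9 matched bases in capitals. The set is shown because it spans the called gene Htatip2, the highest of the genes that missed the threshold, Srxn1, and genes with a smaller difference or a lower reading.
Htatip2, 49 bases before its other start: gtctgagctgTGACTCAGCacttccctag
Htatip2, 12 bases after its first start: gtcttccgggTGACAGCGCgctcgcggcc
Srxn1, 45 bases before the start: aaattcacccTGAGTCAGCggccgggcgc
Srxn1, 158 bases before the start: ccagagaggaTGAGTCGGCtctcagtaga
Srxn1, 29 bases after the start: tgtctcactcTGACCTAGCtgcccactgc
Nfe2l2, 240 bases before the start: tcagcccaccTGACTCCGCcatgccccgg
Txnrd1, 92 bases before 1 of its 3 starts: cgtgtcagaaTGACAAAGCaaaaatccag
G6pdx, 57 bases before the start: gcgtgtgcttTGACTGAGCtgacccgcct
Pgd, 4 bases after 1 of its 2 starts: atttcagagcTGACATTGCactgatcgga

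The 2 Htatip2 windows lie at chr7:49758856-49759155 and chr7:49759262-49759561 and the Srxn1 window at chr2:152105274-152105573, all on the plus strand of GRCm38.p6. The Htatip2 match before the other start reads TGACTCAGC and the Srxn1 match 45 bases before the start reads TGAGTCAGC, both on the strand of the gene. No window of Keap1, Nqo1, Ephx1 or Cbr3 held either set of letters, which says only that these letters are not in these windows. A match of this kind is a description of the sequence and not a bound site. The genes with a match included the called Htatip2, while the called Ephx1 had none and Pgd, with 1, read 11.98 in control and 12.02 in soy-fed livers.

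The regulators themselves came first: did the mRNA of NRF2 or of its repressor differ between the diets? Nfe2l2 read 12.40, 12.27 and 11.91 in control and 12.42, 12.46 and 12.45 in soy-fed livers. The soy-fed livers lay close together just above control 1, and control 3 was the lowest array. The log2 change was 0.25 (SE 0.14, 95% interval −0.07 to 0.57, adjusted p = 0.55), and it was 0.085 within slide 1 and 0.54 within slide 3. It was 0.10 without control 3 and 0.35 without control 1. The median signal before normalisation was 3686 to 6652 in control and 4775 to 5585 in soy-fed livers and overlapped there, as did the median signals of Keap1, Txnrd1 (both probes), Cbr3 and G6pdx. Keap1 read 11.51, 11.82 and 11.85 in control and 12.17, 12.07 and 12.09 in soy-fed livers. Every soy array lay above every control array, with control 1 the lowest. The change was 0.38 (SE 0.12, 95% interval 0.10 to 0.66), a fold of 1.30 with adjusted p = 0.279.

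In the wider set of 13 regulators and partners of NRF2, members differed in both directions. The groups did not overlap for 6 of the 13 (3 higher, 3 lower), against 20.5% of all genes. None was called (limma; 6 of 13 had an unadjusted p under 0.05 by the brightest probe, as counted for all lists, against 14.2% of all genes), 6 read higher and 7 lower, and the median log2 change was −0.069. Bach1 was among the 3 that read lower without overlap, at −0.37 (adjusted p = 0.281). The small MAF genes, whose proteins pair with NRF2 on DNA, did not read the same way. Mafg was the highest of the set at 0.41 (adjusted p = 0.355). Mafk was at −0.39 (adjusted p = 0.165), with every soy array below every control array. Maff was the lowest at −1.18 (adjusted p = 0.372), with 10.52, 9.04 and 8.84 in control against 8.72, 8.40 and 7.75 in soy-fed livers. Every soy array of Maff lay below every control array, control 1 was the highest, and the change was −1.06 within slide 1 and −1.09 within slide 3.

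The enzymes that act on quinones, carbonyls and epoxides included 1 called gene, Ephx1, the microsomal epoxide hydrolase that turns reactive epoxides into diols. Ephx1 read 16.45, 15.82 and 16.46 in control and 17.43, 17.51 and 17.45 in soy-fed livers. The soy-fed livers spanned less than 0.1 and lay 0.97 above the highest control, while control 2 was well below the other control arrays. The change was 1.22 (SE 0.18, 95% interval 0.80 to 1.63), a fold of 2.32 with adjusted p = 0.0473, and it was 1.29 within slide 1 and 0.98 within slide 3. Before normalisation the median signal was 61674 to 109473 in control and 159429 to 174132 in soy-fed livers. The probe ranked 195 by p of the 198 probes called (0.35% of all probes), and it stayed under the threshold when control 2 was left out (adjusted p = 0.0463) but not when any other array was (0.0604 to 0.181). The call was also lost with a normexp offset of 16 (adjusted p = 0.0929), with cyclic loess (0.0718) and with the replicate block (0.0974).

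Nqo1, the NADPH quinone reductase that is the most used readout of NRF2 activity, read 8.10, 7.88 and 7.83 in control and 8.999, 8.40 and 8.59 in soy-fed livers. All soy arrays were above all control arrays, by at least 0.30, and soy 1 was the highest. The change was 0.73 (SE 0.17, 95% interval 0.34 to 1.12), a fold of 1.66 with adjusted p = 0.145, and it was 1.01 within slide 1 and 0.77 within slide 3. Nqo1 passed in 1 of the 20 alternative analyses, on Agilent's processed signal scaled to the 75th percentile (1.06, adjusted p = 0.0104 in limma). Cbr3, a carbonyl reductase, read 8.77, 8.80 and 8.73 in control and 9.90, 9.14 and 9.44 in soy-fed livers. Here the control arrays were nearly level and the soy-fed livers were spread, again with soy 1 highest. The change was 0.72 (SE 0.18, 95% interval 0.30 to 1.15), a fold of 1.65 with adjusted p = 0.181. The signal of both genes was low: before normalisation the median signal of Nqo1 was 215 to 322 in control and 322 to 517 in soy-fed livers, and that of Cbr3 was 413 to 519 and 508 to 941.

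None of 15 other quinone, carbonyl and epoxide enzymes was called in limma, where 5 of 15 had an unadjusted p under 0.05, against 14.2% of all genes. Of the 15, 11 read higher and 4 lower, with a median change of 0.10, and 48.8% of all genes read higher. The groups did not overlap for 6 of the 15, all higher, against 20.5% of all genes. The highest was Aldh1a1, an aldehyde dehydrogenase that makes retinoic acid, at 0.71 (adjusted p = 0.0961). The lowest was the carbonyl reductase Cbr2 at −0.29 (adjusted p = 0.536). Since Ephx1 is also a known target of the nuclear receptor CAR, 7 measured CAR targets were set beside it, and the part of CAR in the Ephx1 result was not tested. None was called in limma, where 3 of 7 had an unadjusted p under 0.05, against 14.2% of all genes. The groups did not overlap for 4 of the 7 (1 higher, 3 lower), against 20.5% of all genes. Of the 7, 6 read lower, among them Cyp2b13, which read at background on all 6 arrays, and the median was −0.49. Cyp2b10, the most used CAR target, was the lowest at −1.38 (SE 0.78, adjusted p = 0.561), with control arrays at 11.69, 10.28 and 8.19, and the direction of this probe turned between the slides, from −1.89 within slide 1 to 0.75 within slide 3. The dimmer Cyp2b10 probe, well above background on all control arrays and on 0 soy arrays, was at least 2-fold higher in control (adjusted p = 0.439), a bound that takes for each soy array the higher of the probe's own signal and the lowest signal well above background. Cyp3a11 was the highest at 1.28 (adjusted p = 0.127), with every soy array above every control array.

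**Figure D2:**
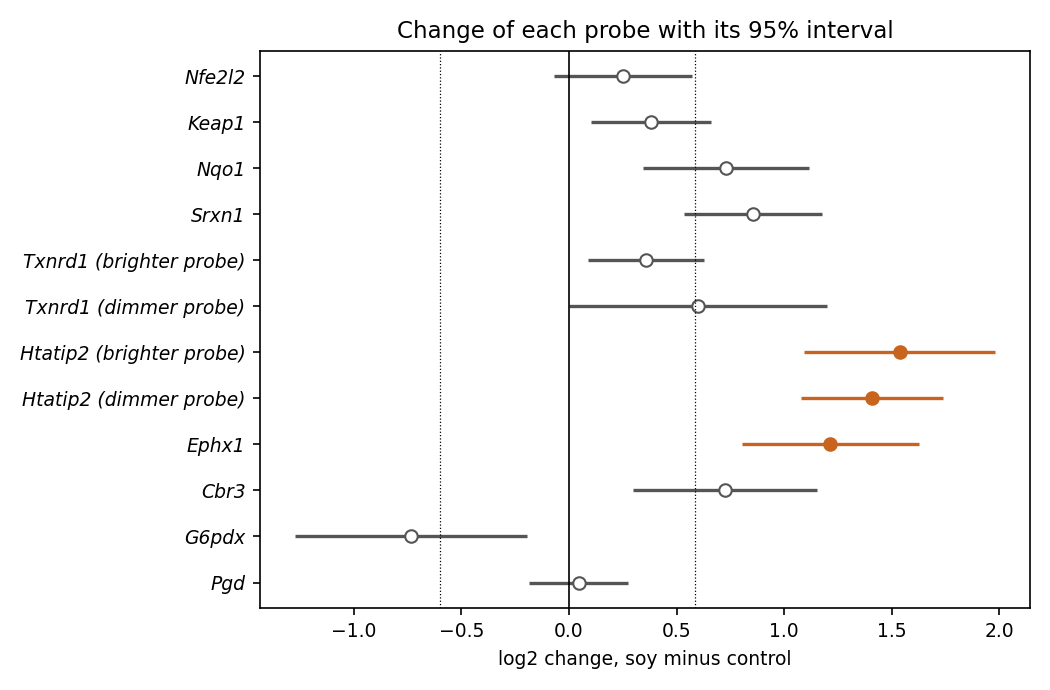
Log2 change, soy-fed minus control, for the 12 probes of the 10 genes; points are limma estimates, lines their 95% intervals, filled orange points the called probes, and dotted lines the fold thresholds of 1.5 and 0.66. Both Htatip2 probes (1.54 and 1.41) and Ephx1 (1.22) are called, Srxn1, Nqo1 and Cbr3 lie between 0.72 and 0.86 without a call, and G6pdx lies at −0.74.

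Among the thiol repair genes, Srxn1 read highest against control. It encodes sulfiredoxin, which restores over-oxidised peroxiredoxins. Srxn1 read 12.28, 12.27 and 12.02 in control and 12.82, 13.10 and 13.23 in soy-fed livers. Every soy array was at least 0.54 above every control array, and the change was larger within slide 3 (1.20) than within slide 1 (0.54). It was 0.86 over all arrays (SE 0.14, 95% interval 0.54 to 1.18), a fold of 1.81 with adjusted p = 0.0605. The gene passed when the fit was restricted to probes well above background (adjusted p = 0.0325), with a trended and robust variance (0.0428) and on Agilent's processed signal scaled to the 75th percentile (0.0131).

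Txnrd1, the cytosolic selenoenzyme that reduces thioredoxin with NADPH, was measured by 2 probes. The brighter one read 13.005, 13.06 and 13.32 in control and 13.48, 13.42 and 13.56 in soy-fed livers, with all soy arrays above all control arrays by 0.099 or more. Its change was 0.36 (SE 0.12, 95% interval 0.087 to 0.63, adjusted p = 0.298). The dimmer probe read 11.56, 12.57 and 12.48 in control and 12.98, 12.69 and 12.75 in soy-fed livers. Control 1 stood about 1 unit below the other control arrays on this probe, and the change of 0.60 (SE 0.26, adjusted p = 0.435) was 0.28 without it. Of 15 other genes of the thioredoxin and peroxiredoxin system none was called in limma, and by the brightest probe 0 of 15 had an unadjusted p under 0.05. The peroxiredoxin gene Prdx1 had an unadjusted p of 0.00824 in limma on 1 of its dimmer probes (0.38, adjusted p = 0.227) and 0.20 (adjusted p = 0.633) on the brightest. Their median change was 0.050, with thioredoxin itself, Txn1, the highest at 0.28 (adjusted p = 0.555) and its inhibitor Txnip the lowest at −0.24 (adjusted p = 0.652).

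Htatip2 encodes TIP30, a member of the short-chain dehydrogenase family that binds NADPH and is known as a tumour suppressor in liver. It had the largest change of the 10 genes, and both of its probes were called. The brighter probe read 11.99, 11.39 and 11.88 in control and 13.17, 13.13 and 13.58 in soy-fed livers. The lowest soy array was 1.14 above the highest control array. The change was 1.54 (SE 0.19, 95% interval 1.09 to 1.98, adjusted p = 0.0304), and it was 1.48 within slide 1 and 1.69 within slide 3. The dimmer probe read 11.28, 10.81 and 11.21 in control and 12.46, 12.47 and 12.59 in soy-fed livers, and the groups were 1.18 apart. Its change was 1.41 (SE 0.14, 95% interval 1.08 to 1.74, adjusted p = 0.0164), with 1.42 within slide 1 and 1.38 within slide 3. Control 2 was the lowest array on both probes. Before normalisation the median signal of the brighter probe was 2753 to 5022 in control and 7571 to 12043 in soy-fed livers. With arrays left out in turn, the dimmer probe passed without control 1, control 2 or control 3 (adjusted p = 0.0349, 0.0392 and 0.0347) and did not without soy 1, soy 2 or soy 3 (0.0682, 0.0763 and 0.0711). The brighter probe did not pass with any array left out (0.0539 to 0.104) or with a normexp offset of 16 (0.0572), while its log2 change stayed between 1.36 and 1.65.

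**Figure D3:**
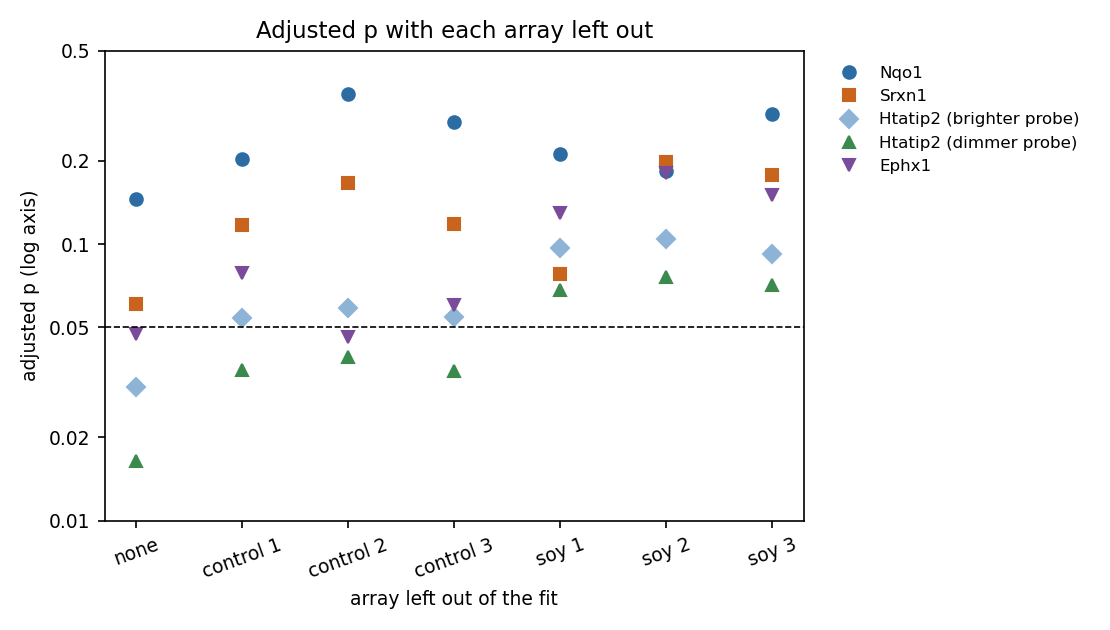
Adjusted p (limma, log axis) of Nqo1, Srxn1, both probes of Htatip2 and Ephx1 with all arrays and with each of the 6 arrays left out in turn; the dashed line is 0.05. The dimmer Htatip2 probe stays under 0.05 without each control array, Ephx1 without control 2 alone, and Nqo1 (0.183 to 0.35) and Srxn1 (0.0781 to 0.198) stay above it throughout.

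NADPH, which NQO1, thioredoxin reductase and carbonyl reductases spend, is made in the oxidative branch of the pentose phosphate pathway. G6pdx encodes glucose-6-phosphate dehydrogenase, which opens that branch, and it was the only gene of the 10 that read lower. It read 10.65, 11.16 and 10.33 in control and 9.83, 9.78 and 10.31 in soy-fed livers. Soy 3 lay 0.015 below control 3, on the same slide, whereas the change within slide 1 was −1.07. The change over all arrays was −0.74 (SE 0.23, 95% interval −1.27 to −0.20), with control 1.66-fold above soy and adjusted p = 0.283. Pgd, whose enzyme makes NADPH in the same branch, read 11.86, 12.06 and 12.02 in control and 12.02, 11.99 and 12.07 in soy-fed livers. The groups overlapped, and the change of 0.045 had a 95% interval of −0.18 to 0.27.

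Of 8 other genes of the pentose phosphate pathway and NADPH supply, 6 read higher and 2 lower, with a median of 0.12. Tkt, the transketolase of the non-oxidative branch, rose in the soy-fed livers. Tkt read 13.88, 13.96 and 13.76 in control and 14.75, 14.58 and 14.60 in soy-fed livers, a gap of 0.62. Its change was 0.78 (SE 0.10, adjusted p = 0.0369), and it was not called when any 1 array was left out. The lowest, the ribose phosphate isomerase Rpia, was at −0.45 (adjusted p = 0.191). Among genes whose enzymes make NADPH outside that pathway, the malic enzyme Me1 stood at 0.67 (adjusted p = 0.153) and 0.48 (adjusted p = 0.27) on its 2 probes, both without overlap, and the isocitrate dehydrogenase Idh1 at 0.24 (adjusted p = 0.406) on its brighter probe.

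The pathway was also measured through 18 genes of glutathione and heme metabolism and 10 further NRF2 targets. In the former, 3 of 18 were called, all higher, against 0.34% of all genes called higher. Of the 18, 13 read higher and 5 lower, among the latter Slc7a11, which read at background on all 6 arrays, and the median was 0.45. These were the glutathione transferases Gstm4 at 1.19 (adjusted p = 0.0164) and Gstm1 at 0.95 (adjusted p = 0.0405, and 1.19 with adjusted p = 0.0286 on its other probe) and the biliverdin reductase Blvrb at 0.97 (adjusted p = 0.0326). Genes of the Gstm cluster are close in sequence, and whether their probes tell them apart was not tested. The highest was Gsta2 at 2.30 (adjusted p = 0.0652) and the lowest Gstm2 at −0.55 (adjusted p = 0.382). The groups did not overlap for 11 of the 18 (10 higher, 1 lower), against 20.5% of all genes. The 1 lower gene was Hmox1, at −0.34 (adjusted p = 0.388), with a gap of 0.0063 between the groups. Of the further targets 2 of 10 were called, both higher (0.34% of all genes were), 9 of the 10 read higher against 48.8% of all genes, and the median was 0.81. Ugdh, which makes the UDP-glucuronic acid used in glucuronidation, rose by 1.05 (adjusted p = 0.0405) on 1 probe and stood at 1.21 (adjusted p = 0.0681) on the other. Abcc3, an exporter of conjugates, rose by 0.82 (adjusted p = 0.0242) on 1 probe and stood at 0.74 (adjusted p = 0.0819) on the other. The lowest, Ppard, was at −0.0099 (adjusted p = 0.989).

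Over these 6 lists 79 of 80 genes had a probe, 6 were called, all higher, against 0.532% of all genes called and 0.34% called higher, and 55 read higher and 24 lower. The groups did not overlap for 37 of the 79 (30 higher, 7 lower), against 20.5% of all genes (9.68% higher, 10.8% lower) and 25.5% of those well above background, and the median log2 change was 0.17, against 0.55 for the 10 genes described above. The lists were written with earlier results of these data known, so neither the medians nor the counts are independent evidence of a direction. Without control 3 Blvrb, Gstm1, Gstm4 and Ugdh were still called, and without control 1 Gstm1 was, while none of the 6 was called without control 2 or without any 1 of the soy arrays. With slide as a block none of the 79 was called in limma, where 28 had an unadjusted p under 0.05. With the replicate block Gstm4 and Ugdh were still called and Gsta2 was gained, while Abcc3, Blvrb, Gstm1 and Tkt were not called. None of Nfe2l2, Keap1 and the 13 regulators and partners passed the test with all arrays.

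**Figure D4:**
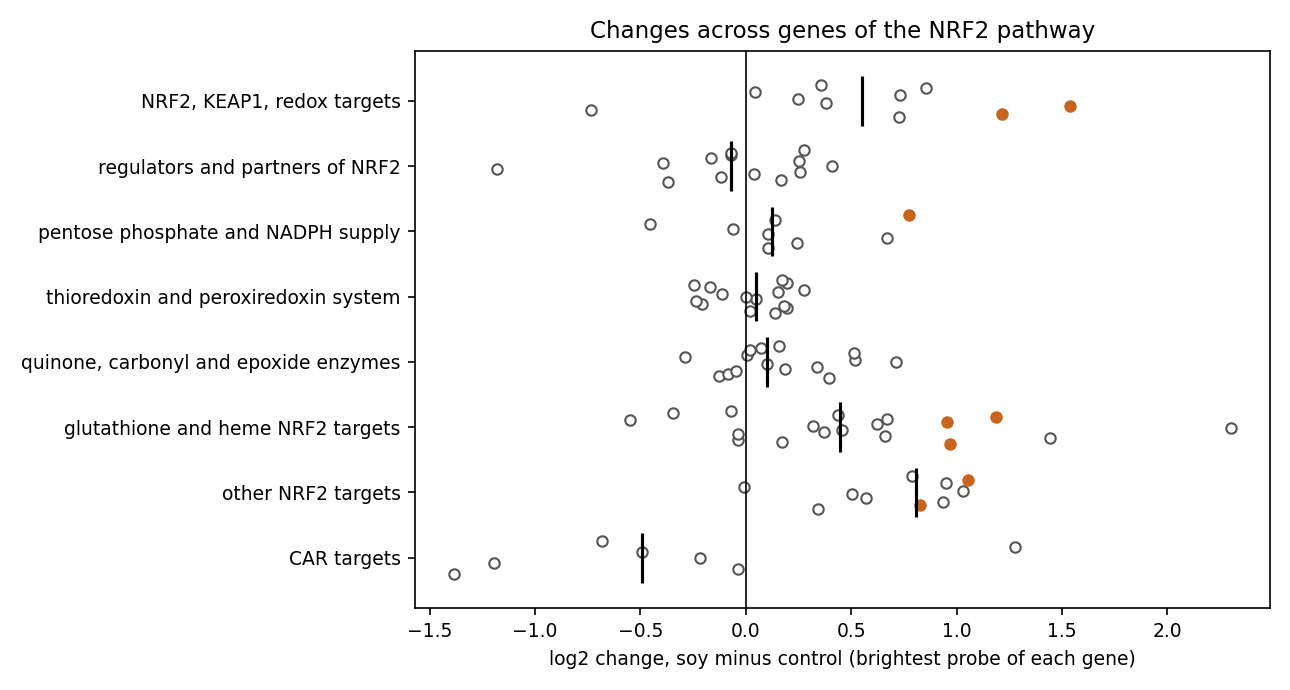
Log2 change, soy-fed minus control, of the brightest probe of every measured gene in the 10 genes and in the other lists; filled orange points are called genes and the black tick is the median of the list. The medians run from −0.49 for the CAR targets and −0.069 for the regulators to 0.55 for the 10 genes and 0.81 for the further NRF2 targets.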

How the data were processed

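The deposited scanner files hold, per spot, the median intensity of 1 colour (Cy3) from Agilent Feature Extraction 11.5.1.1, per the file headers. The authors also deposited a normalised log2 table whose normalisation is not given in the sources used here; it differed from the values used here by at most 0.0705. Median intensities were corrected with normexp (offset 50) on all spots, control spots were removed, and the rest were quantile normalised and put on the log2 scale. Outlier spots were left out and spots of a probe averaged. All 6 arrays (3 control, 3 soy) were fitted with limma 3.58.1 (lmFit, eBayes) in R 4.3.3, which was tested on simulated data. Gene symbols came from RefSeq through the probe's accession, for 58.3% of probes; the array design uses mm9, and probe positions are not given.

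The 10 genes were all described, by the probe brightest over all arrays and any other probe. From each other list the called genes and the highest and lowest changes were named, and from each marker list the brightest gene; the members and lists were chosen with earlier results of these data known. Mafk, Bach1, Hmox1, Prdx1, Me1, Idh1, Cyp2b13, Slc7a11, Marco, Lyve1, Cps1, Tat, Apob, S100a8 and S100a9 were singled out after they had been seen. So were the pancreas and fat genes beside Cela2a, array values of Maff and Cyp2b10 and the raw signals of single genes. The labels number replicates, but no source says that they are separate litters or cages, so p-values measure the spread between these mice. The number of arrays limits the precision. Alternatives changed the background correction, signal, normalisation, probe filter, variance model and blocks, and left out each array.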

Additional observations from a re-analysis of the deposited data

How the results depend on the processing

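The count of genes called, 122 of all genes, 2 of the 10 genes and 6 of the other pathway genes, depended on the settings. With a normexp offset of 16 these counts were 48, 1 (Htatip2) and 1, and on Agilent's processed signal scaled to the 75th percentile 5892, 4 and 17 (89.7% of the calls over the array were higher, against 63.9%). Among probes well above background only, with fewer probes in both the fit and the adjustment, they were 312, 3 and 10. A trended and robust variance gave 184, 3 and 9. With slide as a block they were 16 (43.8% higher), 0 and 0 in limma, where 2968, 7 and 28 genes had an unadjusted p under 0.05. Cyclic loess left 1 of the 10 genes, Htatip2, and the 75th-percentile shift, which moved the median of all genes by 0.1076, left both. The replicate numbers did not pair the mice (same-number correlations 0.1044, −0.0521 and 0.1012, with control 2 closest to soy 1). The replicate block gave 51, 1 (Htatip2) and 3. Leaving out each array gave 18 to 134 genes over the array, 0 to 2 of the 10 and 0 to 5 of the others; without soy 1, soy 2 or soy 3 no gene of the pathway was called, while 7, 8 and 8 of the 10 and 32, 24 and 26 of the others had an unadjusted p under 0.05 (without control 2, 0 of the others were called and 32 had). The cause of these differences was not tested. Of the 10 genes, Pgd alone changed sign, with changes from −0.013 (without control 1) to 0.0831 (without control 2).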
